A study of Mus musculus with 6 samples.

Results

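The genes described here are Toll-like receptors of bone-marrow-derived macrophages with a co-receptor and an escort protein, split by where the receptors work in the cell. Tlr3, which was also expressed, is not among them and is given further below. They are Tlr1, Tlr2, Tlr4, Tlr6 and their co-receptor Cd14 at the cell surface, and Tlr7, Tlr8, Tlr9, Tlr13 and their escort protein Unc93b1 in endosomes. They were taken by gene symbol, by a rule that uses no measured value, which gave 10 of the 55487 genes in the table, and all 10 passed the filter on low counts.

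RNA with poly(A) tails came from macrophages that had been grown from the marrow of wild-type female Balb/c mice aged 6 to 12 weeks. All cells spent 8 days in medium with 20% medium conditioned by L929 fibroblasts, a source of macrophage colony-stimulating factor, followed by 24 hours with the cytokines of the alternative or M2 state, IL-4 (10 ng/mL) and IL-13 (10 ng/mL). The NP group (n = 3) then received poly(lactide-co-glycolide) nanoparticles at 200 µg/mL for 24 hours, and the PBS group (n = 3) the vehicle, so the comparison asked what the particles did to macrophages already in the M2 state. What the treatment label PEMA of the NP samples stands for is not given in these sources. No group without IL-4 and IL-13, and none given a Toll-like receptor ligand, is among these samples.

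Toll-like receptors are membrane proteins that recognise conserved parts of microbes and signal through a shared set of adaptors to NF-kappa-B, MAP kinases and interferon regulatory factors. Receptors at the plasma membrane bind lipids and lipoproteins of microbial envelopes, whereas receptors in endosomes bind nucleic acids and have to be carried there by Unc93b1 and trimmed by acid proteases before they can signal. In macrophages the endosomal receptors share their compartment with engulfed particles.

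Library totals ran from 41974957 to 69450411 counts, with every NP library deeper than every PBS library, and 3 counts equalled 0.0432 to 0.0715 CPM (counts scaled to the library total). The macrophage label held for all 6 libraries: the 8 macrophage markers summed to 11969 to 12362 CPM in PBS and 9427 to 10505 CPM in NP, and Lyz2 made up 67.9% of that. PBS 2 and PBS 3 stood apart from the other 4 libraries in the 1493 olfactory and vomeronasal receptor genes. These summed to 134 and 149 CPM there and to at most 12.0 CPM in PBS 1 and the NP libraries. Averaged over the exon length of all 1493 genes they came to 0.0244 and 0.0271 CPM per kilobase in PBS 2 and PBS 3. Tlr9, the lowest of the 10 receptor genes, had 0.391 and 0.499 CPM per kilobase there, and 0.123 in NP 1. An average does not bound single genes: the T cell marker Cd3e had 1, 55 and 34 counts in PBS 1 to 3 and 0 in each NP library. How far the excess reaches into the receptor genes was not tested. Whether the 3 libraries of a group came from separate cultures or mice is not stated in the labels, so every p-value refers to the spread among these libraries, and that spread may be technical.

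With nanoparticles, 4 of 5 surface genes and 5 of 5 endosomal genes had fallen relative to PBS, and none had risen (limma voom, adjusted p under 0.05 over 14478 genes). The largest falls were in 2 endosomal receptors: Tlr9 fell by 61.2% and Tlr7 fell by 47.5%. Tlr4, the receptor for lipopolysaccharide, fell by 34.7%. The smallest changes were those of Tlr13 (-11.9%) and Tlr6 (-8.21%), and Tlr6 was the gene that was not called. Over all tested genes 21.4% were called lower and 19.8% higher. In all 10 genes every NP library lay below every PBS library, which was the case for 26.8% of all tested genes, while the reverse held for 26.5% of them. Against PBS 1 alone, without PBS 2 and PBS 3, all 10 genes kept a negative log2 fold change, but Tlr1 and Unc93b1 lost their calls. The median log2 fold change was then -0.48 over the surface genes and -0.65 over the endosomal genes. In bulk samples fewer cells of a type and less RNA per cell cannot be told apart.

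**Figure D1:**
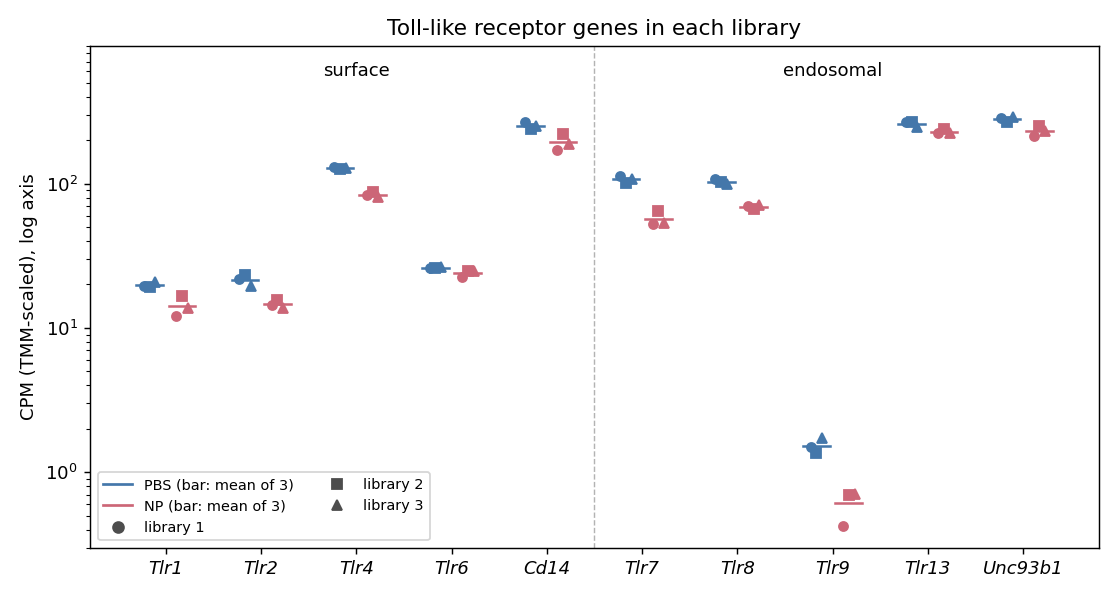
Level of each gene in each library, in TMM-scaled CPM on a log axis, with PBS in blue, NP in red, a marker shape for each library number and a bar at the mean of 3 libraries. In all 10 genes the 3 NP libraries sit below the 3 PBS libraries, by little for Tlr6 and Tlr13 and by most for Tlr7 and Tlr9.

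Tlr4 joins Ly96 (MD-2) to bind lipopolysaccharide of Gram-negative bacteria, and signals both from the surface and, after uptake, from endosomes. It lies on chromosome 4 (66827584 to 66930284, plus strand; GRCm38, GENCODE M21), with 5556 bp of exon and 3 or 4 coding exons depending on the transcript. It measured 130.5, 126 and 129 CPM in PBS 1 to 3, and 83.7, 87.1 and 81.2 CPM in NP 1 to 3. Both groups were tight and far apart: 128 ± 2.17 CPM against 84.0 ± 2.97 CPM (mean ± SD, n = 3 each). The log2 fold change was -0.61 (SE 0.03, 95% interval -0.69 to -0.54, limma voom adjusted p = 7.79e-06), the smallest adjusted p among the 10 genes. It was called lower under all 15 other analysis settings, at log2 fold changes from -0.65 to -0.58.

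Tlr2 is the shared chain of the lipoprotein receptors, which it forms with Tlr1 or Tlr6, and its coding sequence sits in 1 exon on chromosome 3 (83836272 to 83841767, minus strand). Its level was 21.8, 23.1 and 19.4 CPM in PBS and 14.5, 15.7 and 13.7 CPM in NP. The lowest PBS library, PBS 3, was still above the highest NP library, NP 2. The group means were 21.4 ± 1.88 and 14.6 ± 1.01 CPM, a log2 fold change of -0.55 (SE 0.07, interval -0.71 to -0.38, limma voom adjusted p = 0.000416).

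Its partners Tlr1 and Tlr6 moved by unlike amounts. With Tlr1, Tlr2 binds triacylated lipopeptides, and with Tlr6 it binds diacylated ones. Tlr1 measured 19.4, 19.2 and 20.8 CPM in PBS against 12.0, 16.7 and 13.7 CPM in NP. NP 2 kept more Tlr1 than the other NP libraries but stayed below all PBS libraries, and the NP spread (14.2 ± 2.34 CPM) was wider than that of PBS (19.8 ± 0.844 CPM). The log2 fold change of Tlr1 was -0.50 (SE 0.10, interval -0.73 to -0.28, limma voom adjusted p = 0.00331), and against PBS 1 alone the call was lost (adjusted p = 0.0785). Tlr6 measured 26.2, 26.2 and 26.3 CPM in PBS and 22.7, 24.8 and 24.9 CPM in NP. The PBS libraries were almost equal (26.2 ± 0.0401 CPM) and the NP libraries a little below them (24.1 ± 1.26 CPM). The log2 fold change of Tlr6, -0.12 (SE 0.05, interval -0.23 to -0.02), missed the threshold (limma voom adjusted p = 0.0643), and it passed under 1 other setting, scaling by library totals (-0.16, adjusted p = 0.0326).

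Tlr1 (chromosome 5, 64924679 to 64933563) and Tlr6 (chromosome 5, 64952031 to 64960097) are neighbours on the minus strand with 18467 bp between them, each with 1 coding exon. Their transcripts share stretches long enough to hold a whole read. Of the windows of 151 bases, the read length, 4.24% of those in Tlr1 and 3.80% of those in Tlr6 were also present in the other gene, while the other 8 genes shared none with any gene. The submitters' processing notes name RSEM, which divides such reads between genes by estimate, so a small part of the Tlr1 and Tlr6 counts may depend on that division. The libraries were read as pairs, and the other read of a pair may still name the gene. The window shares are therefore not shares of ambiguous pairs, which were not computed. Other shared stretches are not shown. The longest identical run, 229 bases of coding sequence, is shown as an example of sequence in which a read by itself cannot be assigned. It lies at chr5:64925537-64925765 in Tlr1 and chr5:64953828-64954056 in Tlr6, and is written on the minus strand from the GENCODE M21 transcripts (GRCm38).
Tlr1 and Tlr6 shared run: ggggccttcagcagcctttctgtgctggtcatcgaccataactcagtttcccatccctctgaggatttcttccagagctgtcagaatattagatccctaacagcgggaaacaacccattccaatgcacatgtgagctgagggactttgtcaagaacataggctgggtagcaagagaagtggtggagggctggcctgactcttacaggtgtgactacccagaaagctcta

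The sequencing was of Balb/c cells and the run is that of the reference strain, so bases in which the strains differ are not shown. Beyond this run the 2 genes have enough sequence of their own for most windows to name the gene.

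Cd14 is a lipid-anchored protein that hands lipopolysaccharide to Tlr4 and Ly96 and helps to bring Tlr4 into endosomes. It is a short gene of 1732 bp on chromosome 18 (36725067 to 36726798, minus strand). It measured 266, 239.5 and 252 CPM in PBS and 171, 222 and 188 CPM in NP. NP 1 was far below the PBS libraries and NP 2 came close to the lowest of them without reaching it. The means were 253 ± 13.3 and 194 ± 25.9 CPM, a log2 fold change of -0.39 (SE 0.08, interval -0.57 to -0.21, limma voom adjusted p = 0.00438). The call was lost without NP 3 (-0.36, adjusted p = 0.0505).

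Tlr7 recognises single-stranded RNA in endosomes and lies on the X chromosome (167304929 to 167330558, minus strand). Its level was 114, 100.5 and 107 CPM in PBS, and 52.3, 64.1 and 53.2 CPM in NP. The gap between the groups was wider than either group's whole range. The means were 107 ± 6.53 and 56.5 ± 6.59 CPM, a 1.91-fold fall (log2 fold change -0.93, SE 0.07, interval -1.10 to -0.76, limma voom adjusted p = 3.16e-05). NP 2 was again the NP library nearest to PBS.

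Tlr8, the relative of Tlr7 that also reads RNA, lies beside it on the X chromosome (167242696 to 167264329, minus strand), 40599 bp away. It measured 108, 102 and 98.8 CPM in PBS and 70.3, 66.3 and 70.9 CPM in NP. Here NP 2 was the lowest of the NP libraries, unlike in Tlr1, Tlr2, Tlr4, Cd14, Tlr7, Tlr13 and Unc93b1, where it was the highest. The means were 103 ± 4.63 and 69.2 ± 2.48 CPM, a log2 fold change of -0.58 (SE 0.04, interval -0.67 to -0.48, limma voom adjusted p = 2.09e-05).

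Tlr9, the receptor for DNA with unmethylated CpG, was the scarcest of the 10 genes, from chromosome 9 (106222598 to 106226883, plus strand). It had 85, 58 and 89 counts in PBS and 29, 42 and 43 counts in NP, or 1.49, 1.36 and 1.73 CPM against 0.426, 0.696 and 0.711 CPM. Although the NP libraries were deeper, each held fewer Tlr9 reads than any PBS library. The means were 1.53 ± 0.190 and 0.611 ± 0.16 CPM, a 2.58-fold fall (log2 fold change -1.37, SE 0.22, limma voom adjusted p = 0.0012). With so few reads the 95% interval was wide, from -1.87 to -0.86, yet even its upper end was a larger fall than the estimate for any other gene except Tlr7.

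Tlr13, a mouse receptor for bacterial ribosomal RNA, comes from another part of the X chromosome (106143204 to 106160493, plus strand). It measured 266, 269 and 247 CPM in PBS and 225, 239 and 225 CPM in NP. PBS 3 and NP 2 were only a few CPM apart, but the groups did not overlap. The means were 261 ± 12.1 and 229.6 ± 7.71 CPM, a log2 fold change of -0.18 (SE 0.04, interval -0.28 to -0.09, limma voom adjusted p = 0.00659), which was lost without NP 3 (-0.16, adjusted p = 0.0607).

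Unc93b1 binds nucleic acid receptors in the endoplasmic reticulum and carries them to endosomes. Its gene on chromosome 19 (3935186 to 3949340, plus strand) has 4 to 11 coding exons. It measured 284, 266 and 291 CPM in PBS and 213, 252 and 230.2 CPM in NP. Again NP 1 was lowest and NP 2 closest to PBS. The means were 280.2 ± 12.6 and 232 ± 19.4 CPM, a log2 fold change of -0.28 (SE 0.06, interval -0.41 to -0.15, limma voom adjusted p = 0.00446), so the escort fell by 17.5%, less than Tlr7, Tlr8 and Tlr9 and more than Tlr13 by estimate. Against PBS 1 alone its call was lost (-0.30, adjusted p = 0.0603).

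**Figure D2:**
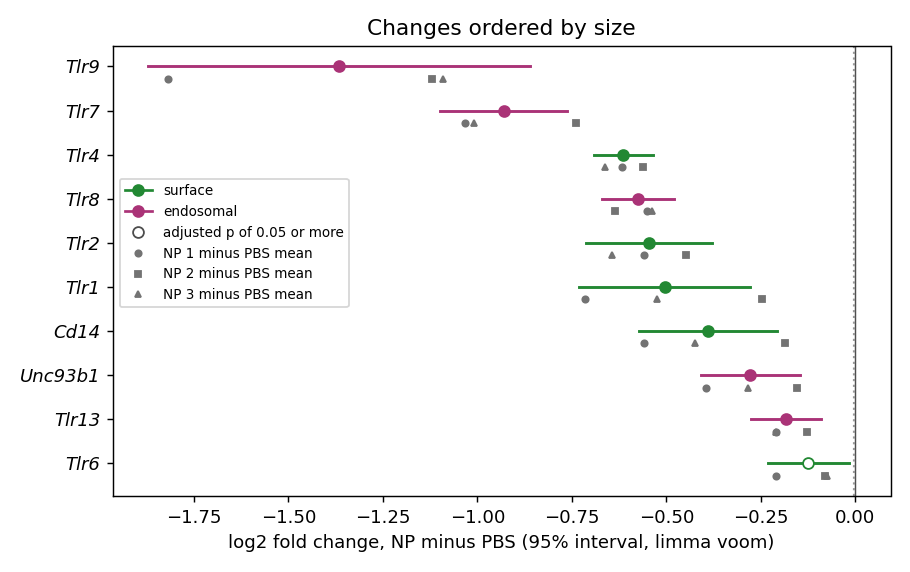
Log2 fold change of NP against PBS for each gene with its 95% interval from limma voom, ordered by size, with surface genes in green and endosomal genes in purple. The grey markers under each are the single NP libraries against the PBS mean; endosomal genes take both the largest falls (Tlr9 and Tlr7) and 2 of the 3 smallest, and NP 2 (squares) lies nearest to 0 in most genes.

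The split by compartment did not order the changes. The median log2 fold change was -0.50 over the 5 surface genes and -0.58 over the 5 endosomal genes, against -0.0035 over all tested genes. The surface changes ran from -0.61 to -0.12 and the endosomal ones from -1.37 to -0.18, so that all surface changes but that of Tlr6 lay inside the endosomal range. The medians differed by 0.07, which is less than the SD of the surface median between NP libraries (0.17; endosomal, 0.05). Against the PBS mean, the surface median was -0.56, -0.25 and -0.53 in NP 1 to 3, and the endosomal median -0.55, -0.63 and -0.54. NP 1 and NP 3 therefore gave nearly equal medians for the compartments, and only NP 2 set them apart. Without NP 2 the order turned, with -0.58 for surface and -0.53 for endosomal genes. No test of the difference between compartments was made, since the genes of a compartment are not replicates of it.

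Scaled by exon length, which allows genes to be compared, the levels spanned a wide range. In PBS the order was Cd14 (146 CPM per kilobase), Unc93b1 (92.4), Tlr13 (60.6), Tlr8 (28.7), Tlr7 (26.3), Tlr4 (23.1), Tlr2 (7.11), Tlr6 (7.03), Tlr1 (5.92) and Tlr9 (0.440). Both co-receptor and escort were thus more abundant than any receptor gene, and Tlr13 was the most abundant receptor. 2 pairs of neighbours in that order had overlapping ranges in PBS. Tlr8 (27.6 to 30.1 CPM per kilobase) overlapped Tlr7 (24.6 to 27.8), but was above it within each PBS library. Tlr2 (6.44 to 7.67) overlapped Tlr6 (7.02 to 7.05), above it in PBS 1 and PBS 2 and below it in PBS 3. In NP the order was Cd14 (112), Unc93b1 (76.4), Tlr13 (53.3), Tlr8 (19.3), Tlr4 (15.1), Tlr7 (13.8), Tlr6 (6.47), Tlr2 (4.86), Tlr1 (4.23) and Tlr9 (0.176). There Tlr8 stood clear of Tlr7, Tlr7 had dropped to the level of Tlr4 (libraries overlapping), and Tlr6 stood clear of Tlr2. The range of Tlr2 overlapped that of Tlr1, but Tlr2 was above Tlr1 within each NP library.

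Because the genes fell by unlike amounts, the make-up of the messages of these receptors, without Tlr3, shifted. Of the summed per-length level of the 8 receptor genes, Tlr13 held 38.0% ± 1.11 in PBS and 45.5% ± 0.216 in NP. The share of Tlr7 went from 16.5% ± 0.896 to 11.8% ± 0.920, and that of Tlr6 from 4.42% ± 0.134 to 5.52% ± 0.246. Tlr8 went from 18.1% ± 0.30 to 16.5% ± 1.17 and Tlr4 from 14.5% ± 0.392 to 12.9% ± 0.253. Tlr9 went from 0.277% ± 0.0405 to 0.149% ± 0.0372. In these 6 genes the shares of the groups did not overlap. The shares of Tlr1 (3.72% and 3.59%) and Tlr2 (4.47% and 4.14%) overlapped between groups. Shares sum to a fixed total, so a gain by Tlr13 and Tlr6 here reflects their smaller fall and not a rise in CPM.

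**Figure D3:**
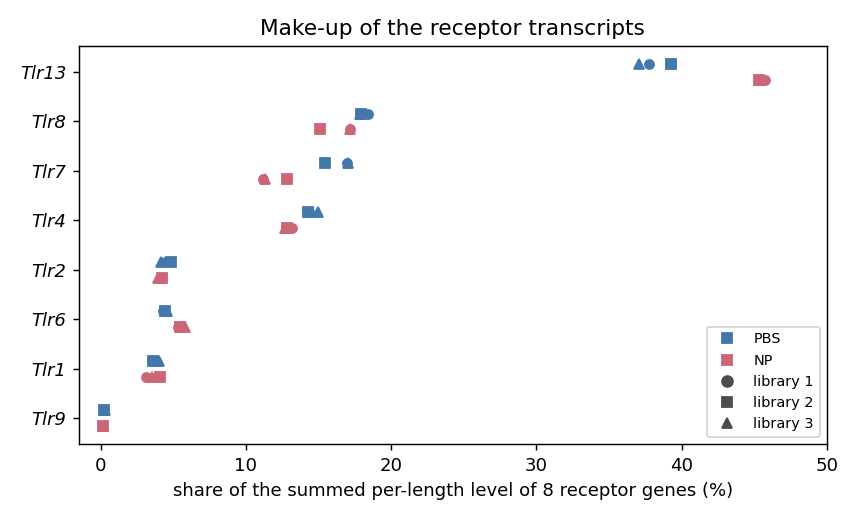
Share of each Toll-like receptor gene in the summed per-length level of the 8 receptor genes, in percent, for each library, with PBS in blue and NP in red. Tlr13 moves from between 37.1% and 39.2% in PBS to between 45.3% and 45.7% in NP, and Tlr7 moves the other way.

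Ratios taken within a library say the same for single pairs. A total of 5 ratios was computed, chosen after the values had been seen, and with 3 libraries against 3 the smallest p that an exact permutation test can give is 0.1. The ratio of Tlr6 to Tlr1, per length, was 1.21, 1.22 and 1.14 in PBS and 1.69, 1.34 and 1.63 in NP, so that the partner for diacylated ligands gained on the partner for triacylated ones in all 3 NP libraries (exact permutation test, two-sided, p = 0.1, adjusted over the 5 ratios 0.125). The ratio of Tlr7 to Tlr8 was 0.923, 0.862 and 0.955 in PBS and 0.653, 0.849 and 0.658 in NP. Here NP 2 came within a small step of PBS 2, and the exact permutation p was again 0.1. Tlr13 to Tlr7 gave 2.22, 2.54 and 2.18 in PBS and 4.08, 3.53 and 4.02 in NP (exact permutation p = 0.1), the widest separation of the 5. Tlr4 to Cd14 was 0.153, 0.164 and 0.159 in PBS and 0.152, 0.122 and 0.135 in NP (exact permutation p = 0.1), with NP 1 next to PBS 1. Tlr13 to Unc93b1 overlapped between groups (exact permutation p = 0.4, adjusted 0.4).

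RefSeq windows of 250 bases before the start sites (GRCm38.p6) were on hand for 6 of the 10 genes, in 8 windows. The whole windows were searched on both strands for 4 motifs: GAGGAAG, an ETS core bound by PU.1 (the macrophage factor encoded by Spi1), TGANTCA for AP-1, an interferon response element (GAAA, any 2 bases, GAAA), and an NF-kappa-B element (GGGA, any 2 bases, TTCC). The windows of Tlr1, Tlr9 and Tlr13 each held the ETS core, which occurs in 10.6% of 32851 windows of that length. Tlr9 also held AP-1 (6.75% of all windows). An inner start site of Tlr6 held 2 overlapping interferon elements (2.98%), and none held the NF-kappa-B letters as spelled above (1.21%). Other spellings of the NF-kappa-B element were not searched, and the Tlr2 window, which is not shown, holds ggggaattccc. The 4 windows with a match are shown, Tlr9 and Tlr13 of the endosomal genes and Tlr1 and Tlr6 of the surface genes, so that the matches can be seen in place. Capitals mark the motif letters, and where a transcript of GENCODE M21 begins inside the window, the sequence stops at its first base. The windows are chr9:106222348-106222597 (plus strand), chrX:106143025-106143203 (plus), chr5:64933564-64933808 (minus) and chr5:64959167-64959416 (minus, inside the Tlr6 gene).
Tlr9 window: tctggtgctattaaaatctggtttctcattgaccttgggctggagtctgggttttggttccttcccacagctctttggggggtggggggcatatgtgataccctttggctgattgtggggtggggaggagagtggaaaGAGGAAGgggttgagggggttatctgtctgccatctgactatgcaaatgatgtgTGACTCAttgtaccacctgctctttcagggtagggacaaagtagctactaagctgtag
Tlr13 window: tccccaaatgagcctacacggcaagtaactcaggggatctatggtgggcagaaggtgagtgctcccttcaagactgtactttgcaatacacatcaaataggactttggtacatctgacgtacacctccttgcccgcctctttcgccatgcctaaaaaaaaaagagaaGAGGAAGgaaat
Tlr1 window: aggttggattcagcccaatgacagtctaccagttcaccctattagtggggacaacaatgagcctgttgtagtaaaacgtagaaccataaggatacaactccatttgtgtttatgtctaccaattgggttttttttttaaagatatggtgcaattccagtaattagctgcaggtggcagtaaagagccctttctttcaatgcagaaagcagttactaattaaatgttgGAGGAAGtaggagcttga
Tlr6 window: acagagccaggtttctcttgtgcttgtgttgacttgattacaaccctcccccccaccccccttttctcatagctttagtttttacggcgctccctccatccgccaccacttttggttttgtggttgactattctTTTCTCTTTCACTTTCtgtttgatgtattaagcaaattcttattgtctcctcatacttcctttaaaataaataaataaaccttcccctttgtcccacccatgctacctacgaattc

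In these letters Tlr9, with the largest fall, carries GAGGAAG and TGACTCA, while Tlr13, with the smallest endosomal fall, holds GAGGAAG just before its start. Only 3 windows held the ETS core and 4 of the 10 genes had no window, so a relation between motif and fall was not tested. A match describes the letters only, and no binding was measured in these samples.

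Of the Toll-like receptor genes outside the 10, Tlr3, the endosomal receptor for double-stranded RNA, which signals through Ticam1 alone, was the only gene with enough counts to test. It measured 20.0, 20.3 and 19.4 CPM in PBS and 14.5, 16.0 and 15.4 CPM in NP, with no overlap (log2 fold change -0.38, SE 0.05, limma voom adjusted p = 0.000401). The flagellin receptor Tlr5 had 9, 5 and 4 counts in PBS and 7, 7 and 3 in NP. Tlr12 had 1 count in NP 1 and 0 elsewhere, and Tlr11 had 0 in every library, so no direction can be given for these 3.

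The other genes of the pathway are given by role, each count to be read beside the 21.4% of all tested genes that were called lower and the 19.8% called higher; no list was tested against the receptors or against other genes. Of 6 tested surface partners, 2 were lower and 2 higher (median log2 fold change 0.10), which in so short a list is near the shares over all genes. Ly96, the MD-2 subunit of the Tlr4 receptor, measured 12.4 ± 0.246 CPM in PBS and 13.4 ± 0.612 CPM in NP and was not called (log2 fold change 0.11, limma voom adjusted p = 0.147). Cd180, a receptor-like protein without a signalling domain of its own, rose by 0.35, whereas Ly86, the MD-1 protein that holds Cd180 at the surface, fell by 0.66 on the log2 scale. Cd36, a scavenger receptor that passes lipids to Tlr2 and Tlr6, rose by 0.28. The integrin gene Itgam (-0.17) was called lower, a call that was lost under 8 of 15 other settings.

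Among 15 tested chaperones and trafficking genes 4 were lower and 6 higher (median 0.04; all tested genes, 21.4% lower and 19.8% higher). Hsp90b1 (gp96), the chaperone that folds most Toll-like receptors, fell from 1584 ± 63.8 to 1356 ± 12.6 CPM (log2 fold change -0.22, limma voom adjusted p = 0.000999), and its cofactor Cnpy3 was not called (-0.05, adjusted p = 0.295). The related Cnpy4 fell by 0.40 on the log2 scale. On the endosomal side, Slc15a3, a transporter of histidine and bacterial peptides, rose by 0.53, and the adaptor subunit Ap3s1 rose by 0.29. 5430427O19Rik, now named Tasl, encodes the adaptor that links the related transporter Slc15a4 to Irf5, and fell by 0.92 on the log2 scale. Its 3 NP libraries held 5.01, 7.24 and 5.77 CPM against 10.9, 11.0 and 11.5 CPM in PBS.

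Enzymes that process endosomal receptors and their ligands numbered 4 lower and 6 higher of 14 tested (median 0.07; all tested genes, 21.4% and 19.8%), and 2 lower without NP 3 or against PBS 1 alone. Ctsl, a cathepsin that can cleave the receptors' ectodomains, rose from 2383 ± 60.5 to 3582 ± 301 CPM (0.58), and Lgmn, an endopeptidase that acts on Tlr7 and Tlr9, fell from 493 ± 26.1 to 363 ± 12.7 CPM (-0.44). The exonucleases Pld3 and Pld4, which degrade single-stranded nucleic acid in endosomes and thereby limit Tlr7 and Tlr9 ligands, moved in opposite directions. Pld3 rose from 535 ± 19.7 to 745 ± 7.36 CPM (log2 fold change 0.48, limma voom adjusted p = 1.8e-05), and Pld4 fell from 134 ± 5.86 to 80.9 ± 9.27 CPM (-0.73, adjusted p = 6.74e-05).

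Downstream, 0 of 6 adaptors were lower and 2 higher (median 0.02; all tested genes, 21.4% and 19.8%). Myd88, used by all 8 receptors among the 10 genes, held 33.1 ± 1.26 CPM in PBS and 31.8 ± 1.71 CPM in NP, with overlapping libraries (log2 fold change -0.06, limma voom adjusted p = 0.386). Ticam1 (TRIF), the adaptor of Tlr3 and endosomal Tlr4, rose from 41.6 ± 3.55 to 50.9 ± 1.25 CPM (0.29, adjusted p = 0.00248), and Pik3ap1 rose by 0.17. Tirap (0.09, adjusted p = 0.0826) and Ticam2 (-0.07, adjusted p = 0.271) were not called. Of 24 kinases and ubiquitin ligases 7 were lower and 7 higher (median 0.01), not far from the 21.4% and 19.8% of all tested genes. Irak2 rose by 0.34, Ikbkg by 0.36, Syk by 0.24 and Traf6 by 0.19, and Irak4, the kinase that starts the cascade on Myd88, fell by 0.17 on the log2 scale. The number of these called lower went from 7 to between 0 and 4 under 6 other settings.

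Of 16 transcription factors 6 were lower and 5 higher (median -0.02; all tested genes, 21.4% and 19.8%). The 5 called higher became 2 without PBS 2 and with PBS 2 and NP 2 both left out, and 3 without NP 3, with library totals and against PBS 1 alone. The NF-kappa-B subunits Nfkb1 (-0.33) and Rel (-0.42) and the interferon regulatory factors Irf1 (-0.57) and Irf7 (-1.16) fell, and Fos rose by 0.39. Irf7 acts below Tlr7 and Tlr9 and is itself induced by interferon; its libraries were 14.2, 9.99 and 12.95 CPM in PBS and 4.34, 8.53 and 4.83 CPM in NP, with NP 2 again nearest to PBS (limma voom adjusted p = 0.00244). Irf5, the factor tied to Myd88 signalling, was not called (-0.07, adjusted p = 0.162), though it was called lower under 2 of 15 other settings. Spi1 was not called either (-0.04, adjusted p = 0.377). Among 21 inhibitors of signalling 13 were lower and 4 higher (median -0.28), where all tested genes gave 21.4% and 19.8%. Tnfaip3 (A20), the ubiquitin-editing brake on NF-kappa-B, rose from 61.4 ± 2.98 to 111 ± 7.13 CPM (0.85, adjusted p = 1.15e-05), while the I-kappa-B genes split: Nfkbib rose by 0.55, and Nfkbie and Nfkbia fell by 0.52 and 0.37 on the log2 scale.

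Of 20 genes that Toll-like receptor signalling induces, 14 had enough counts to test, and of these 9 were lower and 0 higher (median -0.61), where all tested genes gave 21.4% and 19.8%. Il1b fell from 19.2 ± 1.2 to 9.24 ± 0.211 CPM (log2 fold change -1.05, limma voom adjusted p = 9.35e-06) and Cxcl2 from 7.09 ± 0.436 to 2.79 ± 0.521 CPM (-1.38, adjusted p = 6.38e-05). Ccl4 fell by 0.83 and Marcks by 0.34 on the log2 scale. Tnf was not called, at 21.7 ± 1.96 and 19.1 ± 2.16 CPM (-0.19, adjusted p = 0.125). Zfp36, whose product destabilises cytokine messages and which was picked after its values were seen, was not called (0.10, adjusted p = 0.153). It was called higher without PBS 3 (0.16, adjusted p = 0.0232) and with sample quality weights (0.13, adjusted p = 0.0328).

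**Figure D4:**
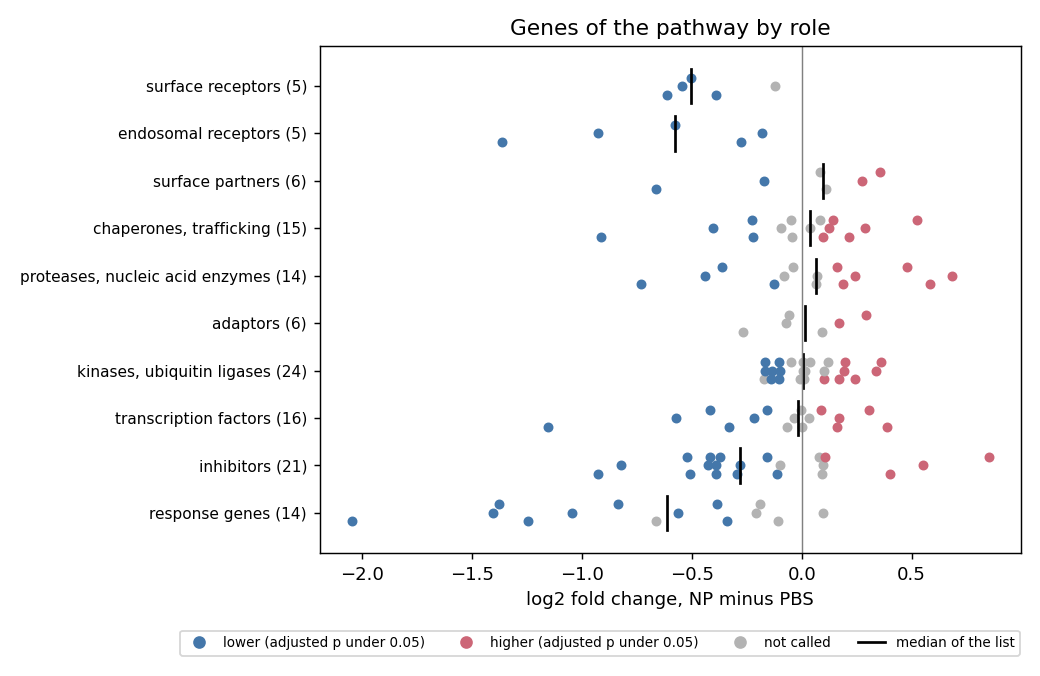
Log2 fold change of each tested gene of the pathway, grouped by role with the number tested in brackets; blue points were called lower, red points higher and grey points neither, and the black bar is the median of the list. The 10 receptor genes all lie left of 0, and genes of the partner, chaperone, enzyme, adaptor and kinase lists lie on both sides of it.

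Markers of other cells that use endosomal receptors were low or absent, apart from Tcf4. B cell markers summed to 1.85 to 3.00 CPM in PBS and 0.36 to 1.42 CPM in NP, and Ighm made up 78.3% of the sum. Tlr9, which B cells express strongly, moved in the same direction as this sum, and the part of such cells in the Tlr9 result was not tested. The 6 markers of plasmacytoid dendritic cells, the cell type with most Tlr7 and Tlr9, summed to 73.3 to 77.2 CPM in PBS and 44.9 to 51.6 CPM in NP, but 97.3% of that was Tcf4, which macrophages also transcribe, and Siglech had 0, 15 and 19 counts in PBS and 0, 1 and 0 in NP. Siglech and Ccr9 (7, 61 and 70 counts in PBS) were raised in PBS 2 and PBS 3, the libraries with more olfactory receptor counts. So were Bcl11a of the same list (11, 79 and 101 counts in PBS 1 to 3), the B cell marker Pax5 (1, 25 and 23) and the T cell marker Cd3e (1, 55 and 34). The part of plasmacytoid dendritic cells in the Tlr7 and Tlr9 results was not tested. Conventional dendritic cell markers summed to 3.73 to 5.93 CPM in PBS and 4.72 to 5.57 CPM in NP. Of the 5 tested genes of that list 2 were called higher and 0 lower, where all tested genes gave 19.8% and 21.4%. Ccr7, the chemokine receptor of mature dendritic cells, had 0, 0 and 1 counts in PBS and 27, 25 and 33 in NP. Itgae was also called higher, and both averaged only 0.452 CPM in NP. Batf3 (log2 fold change -0.28), Zbtb46 (-0.11) and Xcr1 (0.35) were not called. Flt3, Clec9a and Cd209a had too few counts to test. Neutrophil markers, with Camp, Ly6g and Retnlg at 0, summed to 0.607 to 0.835 and 0.901 to 1.12 CPM. Fibroblast markers summed to 5.52 to 6.05 and 4.15 to 4.59 CPM. T and NK cell markers, with Cd8a, Ncr1 and Nkg7 at 0, summed to 1.23 to 2.82 and 0.907 to 1.24 CPM. Of the 8 macrophage markers themselves 6 were lower and 1 higher, where all tested genes gave 21.4% and 19.8%. The log2 fold changes of Adgre1 (F4/80, -0.65) and Csf1r (-0.59) were close to that of Tlr4, and Cd68 rose by 0.14. The part of this shift in the receptor results was not tested.

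Likeness was measured as the root mean square difference between log2 CPM profiles centred over the 6 libraries, among 9919 genes with a mean of at least 5 CPM. The profiles most like Tlr4 were those of Gm4070 (0.0135), Adgre1 (0.0203) and Wwp1 (0.0240). For Tlr7 they were Ccsap, Cenpq and Trim59 (0.0342, 0.0361 and 0.0438), and for Tlr1 they were Lrrc25, Cdc6 and Gmnn (0.0343, 0.0346 and 0.0396). Cd14 lay nearest to Nfatc2, Mov10 and Mcm4, and Tlr8, with its lowest value in NP 2, nearest to Tfdp2, Mxd4 and Rnf180. No pair among these was tested, and all profiles rest on the same 6 libraries.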

How the data were processed

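The deposited values are expected counts per gene, in 1 table of the authors for 6 libraries read as pairs of 151 bp; they are whole numbers and carry no depth scaling. Per the submitters' processing notes, the tools were STAR 2.7.8a and RSEM 1.3.3 on GRCm38, besides cutadapt 2.3, MultiQC 1.7 and FastQC 0.11.8, whose roles are not stated. Neither annotation release nor strand setting is stated there, but no annotated gene overlaps any of the 10 receptor genes on either strand. Quoted names with spaces kept an automatic check of the deposited count columns from reading them, so edgeR and DESeq2 were not run.

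Of 55491 rows, 4 reporter rows with 0 counts were left out, and 55227 of the remaining genes matched GENCODE M21. The 14478 genes tested reached 0.171 CPM, or 10 counts in a library of median depth, in 3 or more libraries, and 15 counts overall. limma 3.58.1 in R 4.3.3 fitted voom (0.5 added to each count) on the group alone over all tested genes, with trimmed-mean (TMM) factors of 0.979 to 1.02 and Benjamini-Hochberg adjustment at 0.05; the fit was tested on simulated data. CPM of tested genes are TMM-scaled, and those of marker and olfactory receptor sums use library totals. Per-length levels divide CPM by the merged exon length. Depth limits cover counting error only. All 10 genes and the tested members with the smallest p in each list, up to 4, were named, with Myd88, Ticam1, Ly96, Irak4, Traf6, Hsp90b1, Cnpy3, Irf5 and Irf7 named whatever their result; Tnf, Tirap, Ticam2, Spi1 and the markers were picked after their values were seen where that rule does not take them. The genes and lists were chosen with earlier results of these data known. Alternatives were other scalings, filters and weights, a replicate block and left-out libraries.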

Additional observations from a re-analysis of the deposited data

How the results depend on the processing

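The 10 receptor genes kept a negative log2 fold change in all 150 values from 15 other settings, and 145 of these were on the same side of the threshold as in the reported analysis. The exceptions were Tlr6 with library totals, Cd14 and Tlr13 without NP 3, and Tlr1 and Unc93b1 against PBS 1 alone, all given above. Against PBS 1 alone, whose spread is then taken to be that of the NP libraries, 2972 genes were called in place of 5964, the endosomal median was -0.65, and Ticam2 turned to 0.029; the cause was not tested. Leaving out each library in turn gave 4077 to 6466 called genes, 3 to 4 surface and 4 to 5 endosomal genes called lower. In these fits 1975 to 3850 genes were called lower among 14696 to 16054 tested. The difference between the medians (endosomal minus surface) ran from -0.20 without NP 1 to 0.05 without NP 2. Among the other 40 named genes, 599 of 600 values kept their sign and 585 their side of the threshold. Pik3ap1, Cd36 and Irak4 each lost their call under 1 of the 15 settings, and Itgam under 8. Irf5 was called lower under 2 settings and Ly96 higher under 1. Deviations of same-numbered libraries from their group means gave r = -0.0899, -0.237 and -0.267 over 9928 genes. Libraries with unlike numbers gave r from -0.187 (PBS 1 with NP 3) to 0.426 (PBS 2 with NP 3). Deviations sum to 0 within each group, which ties these values together, so they cannot decide whether the numbers pair the libraries. With a replicate block 5022 of 14478 genes were called, 2669 of them lower, with 4 surface and 5 endosomal genes lower. edgeR's quasi-likelihood test and DESeq2, both planned as alternatives, were not run. Depth limits Tlr9 most, with 29 to 89 counts per library.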
